A study of Mus musculus with 6 samples.

Results

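Unannotated intergenic transcripts were examined in ovaries of E15.5 mouse embryos. They were the transcripts that StringTie assembled from the reads and that carried the class code u, which marks a transcript lying outside every gene of the RefSeq annotation used for the assembly. The rule found 1203 of the 114412 transcripts (1.05%), in 1037 loci, of which 110 held more than 1 of them. The pregnant mice were labelled as C57Bl6j and had received panobinostat (PB), an inhibitor of histone deacetylases (HDACs), between E6.5 and E15.5 at 5 mg/kg, which the labels give per day and the methods for every 2 days. The control group received vehicle alone according to the methods and is labelled only as control. Each group comprised 3 pools of whole ovaries, with 4 ovaries per pool in 1 protocol, 6 to 8 in the design text and at least 8 in the RNA-seq methods. The design text describes the control libraries too as coming from exposed mice, and the groups used here follow the treatment label. Germ cells and somatic cells were measured together, so a change in the number of cells of a type and a change of RNA per cell cannot be told apart. Poly-A RNA was sequenced with a strand-specific kit, and the values are the deposited counts per transcript.

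Most intergenic RNA of a mouse cell falls into a few known kinds. Processed pseudogenes are copies of spliced messenger RNAs that the reverse transcriptase of LINE-1 elements wrote back into the genome, usually with no introns and often close in sequence to the parent gene, and genes that are highly expressed in the germ line, such as those of ribosomal proteins, have many of them. Unprocessed pseudogenes arise from duplicated genes and keep their introns, and pieces of mitochondrial DNA inserted into the nuclear genome form another kind of copy. Other intergenic transcripts are long non-coding RNAs, some of which start beside the promoter of a coding gene and run away from it on the opposite strand. HDAC inhibitors raise histone acetylation, which generally accompanies open chromatin and transcription, and transcripts outside genes are 1 place where this can be looked for.

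The total counts of the pools lay between 97165644 and 125985399, and 3 counts, taken as the floor of detection, corresponded to 0.0249 to 0.0304 CPM in a pool, where CPM is the count scaled to the total count of its pool after adjustment by the TMM factor. Levels given per kb are CPM divided by the exon length in kb, averaged over the 6 pools. The summed level of 6 pregranulosa markers lay between 846 and 1002 CPM and that of 6 germ cell markers between 378 and 667 CPM in all pools, so pregranulosa cells and germ cells were present in each. The summed markers of red blood cells (7938 to 18090 CPM), of Leydig cells (27.4 to 56.9 CPM), of the mesonephros (110 to 124 CPM) and of the other cell types examined (Sertoli cells, adrenal and macrophages) overlapped between the groups, and their part in the results below was not tested.

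The intergenic transcripts were short and mostly unspliced. Of the 1203, 915 (76.06%) had 1 exon, compared with 6.21% of annotated non-coding transcripts, 3.29% of annotated coding transcripts and 14.6% of the other assembled transcripts. Their median exon length was 606 bases, against 1589, 3083 and 2960 bases in those classes. They were more steadily detected than the annotated classes, since 1046 (86.95%) had counts in all 6 pools, against 16.5% of annotated non-coding and 43.1% of annotated coding transcripts. In part this follows from the way they were found, because an assembled transcript exists only where reads were seen, and of the other assembled transcripts 69.6% had counts in all pools. Among the transcripts that passed the filter on low counts, their median level was 3.34 CPM per kb, against 0.224 in annotated non-coding, 0.845 in annotated coding and 2.095 CPM per kb in other assembled transcripts. These are levels per transcript, not per gene, and they too depend in part on assembled transcripts having been found from reads. StringTie divides the counts of a locus among its transcripts, and 923 of the 1083 intergenic transcripts tested were the only member of their locus.

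Although no RefSeq gene overlaps them, most of these transcripts lay where another annotation places a gene. GENCODE release M21 uses the same genome build, GRCm38 (mm10), and 99.62% of the introns of the deposited coding RefSeq transcripts are present in it. Of the 1203 transcripts, 999 (83.04%) shared exon bases with a GENCODE gene on the same strand, and 824 (68.5%) did so over at least 50% of their exon bases. GENCODE calls the gene a processed pseudogene for 875 of them (72.73%), an unprocessed pseudogene for 43 and another pseudogene for 3. A protein-coding gene lay at 52 of them, a long non-coding gene at 15 and a gene still to be experimentally checked at 7. A further 14 lay in an intron of a GENCODE gene, 23 opposite such a gene on the other strand, and for 167 (13.88%) no GENCODE gene was found at their place. The 167 include the members on scaffolds outside the chromosomes, whose names were not matched between the annotations. Of these 167, 147 had 1 exon.

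**Figure D1:**
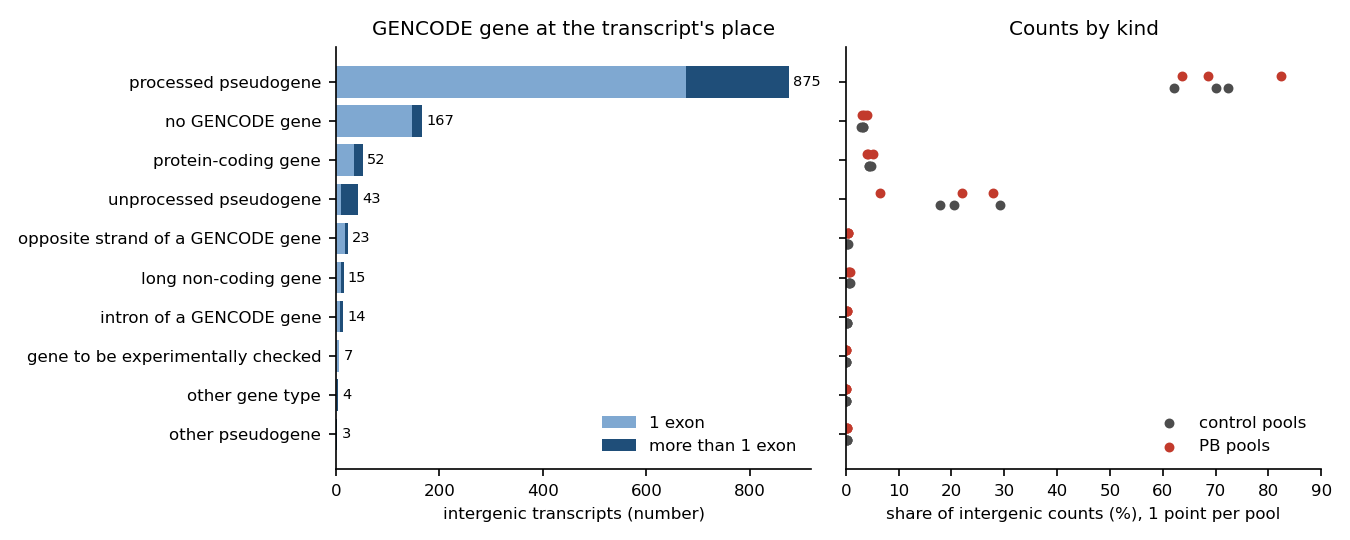
Left, number of intergenic transcripts by the kind of GENCODE gene at their place, with transcripts of 1 exon in light blue and of more than 1 exon in dark blue; right, the share of the counts of all intergenic transcripts that each kind held, as 1 point per pool (grey control, red PB, in percent). Processed pseudogenes held 875 of the 1203 transcripts and between 62.1% and 82.3% of the counts in every pool, and the unprocessed pseudogenes, which include the copy of the mitochondrial genes, were the kind that varied most between pools.

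The following stretches show how close such copies are to the genes they came from. They were read from the GENCODE M21 transcripts on GRCm38, 5′ to 3′ along the coding strand, and bases that differ from the gene are in capitals, with positions counted from 1 at the first base printed. A stretch is common to a gene and the copies printed with it, and a copy with no difference in it may differ elsewhere. The first set is the nuclear copy with the highest level per kb, at the gene of the cytochrome oxidase subunit mt-Co1 (chrM:6390-6469, + strand), beside the GENCODE gene Gm29216 in the copy (chr1:24616109-24616188, − strand), which differs by A4T. The second is the first 80 bases of the coding sequence of Ppia, which encodes cyclophilin A (chr11:6415911-6418111, across an exon junction), beside the copy Gm10123 (chr9:96895658-96895737, + strand), where the same 80 bases stand in 1 exon with 0 differences.
mt-Co1: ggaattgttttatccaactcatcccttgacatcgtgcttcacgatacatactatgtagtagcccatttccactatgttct
Gm29216: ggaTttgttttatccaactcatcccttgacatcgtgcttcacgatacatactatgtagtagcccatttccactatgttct
Ppia: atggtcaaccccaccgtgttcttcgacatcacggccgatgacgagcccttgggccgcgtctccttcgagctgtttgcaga
Gm10123: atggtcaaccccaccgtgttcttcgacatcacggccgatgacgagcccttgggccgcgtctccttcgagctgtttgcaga

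The third set shows the glycolytic enzyme gene Gapdh (chr6:125162938-125163017, − strand) with the pair of its copies that had the highest levels, Gm5559 (chr5:95862058-95862137, + strand, T41A) and Gm7336 (chr7:51747041-51747120, + strand, 0 differences here and 99.76% identity over its length).
Gapdh: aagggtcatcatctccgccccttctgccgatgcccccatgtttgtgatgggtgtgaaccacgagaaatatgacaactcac
Gm5559: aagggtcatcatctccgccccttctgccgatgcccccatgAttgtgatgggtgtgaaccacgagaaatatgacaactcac
Gm7336: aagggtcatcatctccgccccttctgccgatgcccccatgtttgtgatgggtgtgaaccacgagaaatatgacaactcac

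The fourth set shows the ribosomal protein gene Rpl7a (chr2:26911438-26911517, + strand) with a copy of high level, Gm8226 (chr9:84424124-84424203, + strand), and with the 3 copies that had the smallest p-values among loci higher in PB, Gm5619 (chr9:85782444-85782523, − strand), Rpl7a-ps3 (chr15:36308725-36308804, − strand) and Gm6129 (chr13:34394305-34394384, − strand). All 4 copies carry A46G, and Rpl7a-ps3 and Gm6129 also carry T64C.
Rpl7a: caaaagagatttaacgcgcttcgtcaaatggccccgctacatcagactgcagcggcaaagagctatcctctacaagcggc
Gm8226: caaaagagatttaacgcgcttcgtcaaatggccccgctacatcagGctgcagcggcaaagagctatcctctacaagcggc
Gm5619: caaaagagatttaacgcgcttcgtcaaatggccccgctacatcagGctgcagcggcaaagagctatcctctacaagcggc
Rpl7a-ps3: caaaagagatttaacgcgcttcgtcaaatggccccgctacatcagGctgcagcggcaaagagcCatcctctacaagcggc
Gm6129: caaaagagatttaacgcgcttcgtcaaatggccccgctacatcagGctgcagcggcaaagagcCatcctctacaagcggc

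The last pair shows more diverged copies, in which 0.200% (Gm13050) and 3.96% (Gm6475) of the stretches of 100 bases occurred in another GENCODE transcript. Gm13050 (chr4:143242666-143242745, − strand) differs from the elongation factor gene Eef2 (chr10:81180946-81181025, + strand) at 4 of the 80 bases, and Gm6475 (chr17:3312391-3312470, − strand) differs from Cd2ap (chr17:42805195-42805274, − strand), which encodes an adaptor of the actin cytoskeleton, at 6.
Eef2: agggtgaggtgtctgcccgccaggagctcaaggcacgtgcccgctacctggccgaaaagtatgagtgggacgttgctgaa
Gm13050: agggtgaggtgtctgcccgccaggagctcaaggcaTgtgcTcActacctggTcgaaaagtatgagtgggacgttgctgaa
Cd2ap: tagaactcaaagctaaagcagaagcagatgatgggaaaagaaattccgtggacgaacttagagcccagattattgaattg
Gm6475: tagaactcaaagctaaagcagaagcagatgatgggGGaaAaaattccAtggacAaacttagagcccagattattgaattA

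Over all members the closeness to a coding gene was of this order. A GENCODE sequence was at hand for 993 transcripts, and a search with blastn of the coding transcripts found a closest gene, called the parent here, for 974 of them, with 492 different parents. The median identity to the parent was 99.19% (interquartile range 98.37% to 99.7%), 550 transcripts (56.47%) were at least 99% identical, and 157 were identical. Of the stretches of 100 bases in such a transcript, the length of a read, a median of 54.93% occurred unchanged in a GENCODE transcript elsewhere in the genome, the parent or another copy. In 175 transcripts all stretches did so and in 65 none. A read from such a stretch carries no base that assigns it to 1 place, although the reads were sequenced in pairs and a pair spans more bases. The stretches cover the bases of a transcript that lie in the GENCODE gene.

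The level went with this property. The median level was 1.83 CPM per kb in the 100 transcripts with fewer than 10% of their stretches found elsewhere, 2.91 in the 327 with 10% to 50%, 4.57 in the 317 with 50% to 90%, and 4.71 CPM per kb in the 219 with 90% or more. Across all 963 transcripts the Spearman correlation of the level with the shared percentage was 0.185, and across 798 loci that of the level of the copy with that of its parent was 0.443. These points share libraries and depth and, for copies of 1 gene, sequence. A copy lay at a median of 0.0730 of the level per kb of its parent (interquartile range 0.0240 to 0.201), and 40 loci (5.01%) lay above it.

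**Figure D2:**
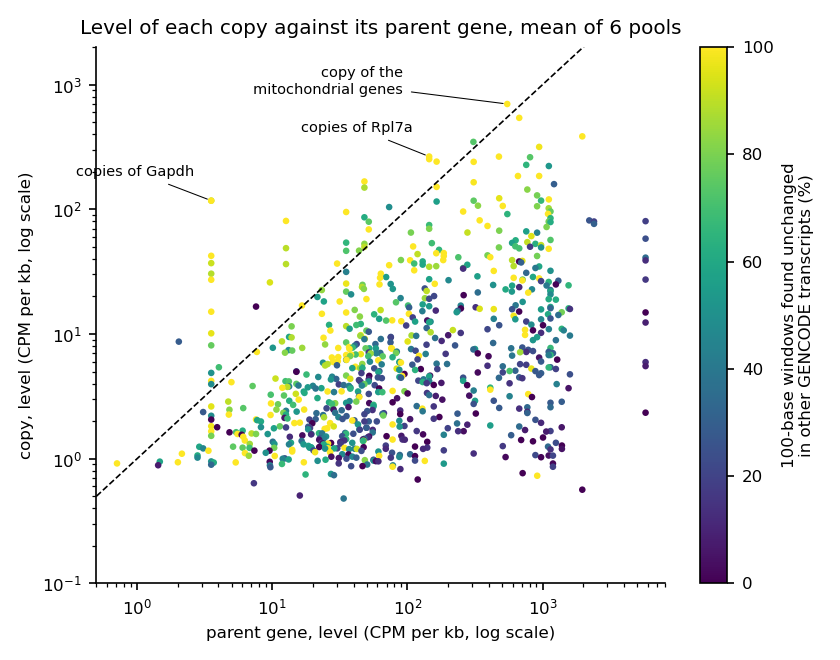
Level of each intergenic copy (vertical axis) against the level of its parent gene (horizontal axis), both in CPM per kb averaged over the 6 pools on log scales, with 1 point per locus coloured by the percentage of 100-base windows found unchanged in other GENCODE transcripts and a dashed line where both are equal. Most points lie under the line at a median ratio of 0.0730, and the vertical row of points at 3.53 CPM per kb on the horizontal axis is formed by the 20 copies of Gapdh.

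Ribosomal protein genes were the largest family of parents that was listed. Of the 819 loci with a parent, 202 (24.7%) were copies of 60 ribosomal protein genes. Another 33 were copies of genes of HMG proteins, histones and prothymosin, which bind or regulate chromatin, 31 of genes of hnRNPs and splicing proteins, 28 of glycolytic enzymes, 25 of translation factors, 23 of chaperones and 14 of cytoskeletal proteins. No listed family held the other 442 loci (53.97%), which had 363 parents. The copies of ribosomal protein genes held 0.491%, 0.498% and 0.491% of all counts in control and 0.4998%, 0.486% and 0.484% in PB. The mean share was 0.493% ± 0.00417 in control and 0.490% ± 0.00872 in PB (SD, n = 3), and the groups overlapped. A median log2 fold change of −0.05 was found over the 201 of these loci that were tested, of −0.04 over the HMG and histone copies, −0.02 over the hnRNP copies, −0.02 over the glycolytic copies, −0.03 over the chaperone copies and −0.03 over the cytoskeletal copies. It was 0.03 over the copies of translation factors and 0.01 over the loci of no listed family. The copies of chaperone genes held 0.0858%, 0.0913% and 0.0978% of all counts in control and 0.0794%, 0.0855% and 0.0773% in PB. They were the 1 family whose shares did not overlap between the groups, where 10.6% of all single loci tested did not overlap. The families were defined after the parents were seen, and this difference was not tested. Over all 1033 intergenic loci tested the median log2 fold change was 0.00, as it was over all 21216 loci tested.

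Parents with several copies included Gapdh with 20 loci, Rps2 with 18, Hmgb1 with 14, Rpl7a with 12, Rpsa with 11, and Eef1a1 and Rpl21 with 10 each. Their copies summed to different fractions of the parent. The 10 copies of Eef1a1, the gene of the elongation factor that brings aminoacyl-tRNA to the ribosome, reached 0.0497 of the level of the gene, the 11 of Rpsa 0.306 and the 18 of Rps2 0.427. The copies of Rpl29 reached 3.39 times, those of Rpl7a 5.42 times, those of Hmgb1 8.72 times, those of Rpl21 10.9 times and the 6 copies of Hnrnpa3, an RNA-binding protein, 13.6 times the level of the gene. In 23 of the 480 parents with values the copies summed to more than the gene.

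Gapdh was the farthest of the parents with several copies. The gene itself had 969, 817 and 1553 counts in control and 33, 2043 and 2270 in PB, summed over its 6 deposited transcripts, of which the 3 annotated ones held 24, 32 and 154 counts in control and 1, 5 and 1159 in PB. Its 20 intergenic copies held 51313, 64358 and 48177 counts in control and 50010, 57033 and 57891 in PB. The copies thus carried 431 CPM per kb against 3.53 CPM per kb at the gene, 122 times as much. The largest copies, Gm5559 (chr5:95861642-95862903) and Gm7336 (chr7:51746627-51747891), held 15207, 18816 and 14248 and 15025, 18812 and 14146 counts in control, and 14615, 16736 and 16858 and 14809, 16564 and 17196 counts in PB. Both are close copies of the gene, as printed above, and their log2 fold changes were −0.03 ± 0.06 and −0.01 ± 0.05 (SE). The count of the gene ranged from 33 to 2270 between pools, while that of its copies stayed between 48177 and 64358.

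Rpl7a, a protein of the large ribosomal subunit, showed a similar division with less distance. Its gene (MSTRG.9798) had 18132, 21874 and 27141 counts in control and 8590, 5876 and 18862 in PB, and the 12 copies together had 63674, 74197 and 54935 in control and 63479, 66472 and 74722 in PB. Of the gene's counts, its 2 annotated transcripts held 4430, 11151 and 96 in control and 131, 364 and 1413 in PB. The rest lay on 4 assembled transcripts that varied between pools, such as MSTRG.9798.2 with 7231 in control 1 and 0 in every other pool. In CPM the gene had 178, 181 and 276 in control and 83.9, 54.7 and 157 in PB, so that every PB pool lay below every control, with a log2 fold change of −1.11 ± 0.39 (SE, edgeR FDR = 0.895). The copies had 626, 614 and 559 CPM in control and 620, 618 and 620 CPM in PB, where the groups overlapped. Gene and copies together had 804, 794 and 835 CPM in control and 704, 673 and 776 CPM in PB, again with every PB pool below every control, and this sum was not tested. The pair of copies with the highest level, Rpl7a-ps11 on chromosome X (264.7 CPM per kb) and Gm8226 (252.2 CPM per kb), had log2 fold changes of 0.01 ± 0.05 and 0.01 ± 0.05.

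**Figure D3:**
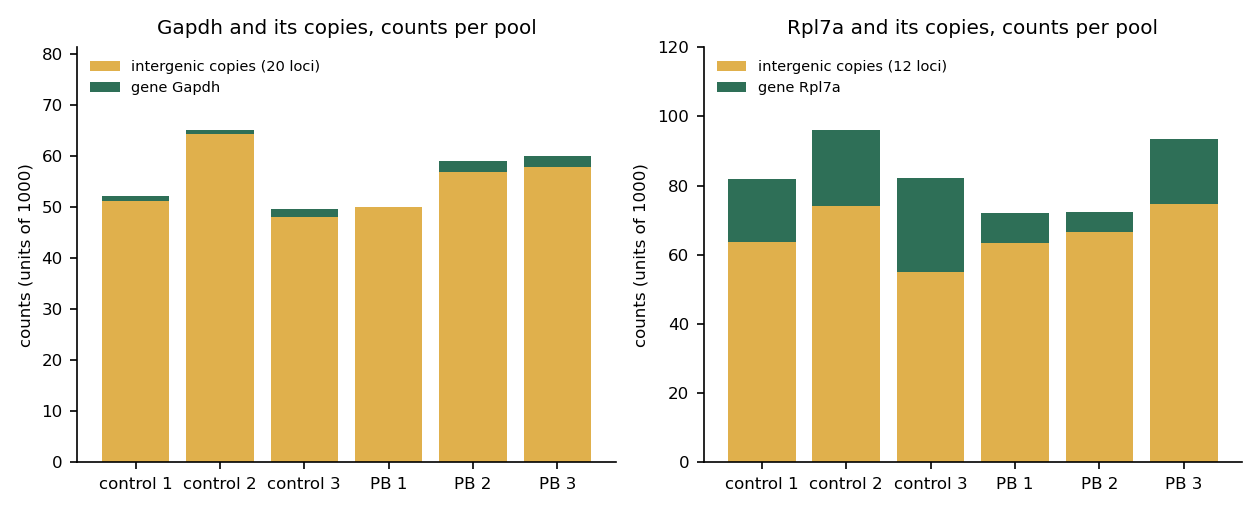
Counts per pool, in units of 1000 counts, of the genes Gapdh (left) and Rpl7a (right) in green, stacked on the summed counts of their intergenic copies in yellow. The 20 Gapdh copies hold nearly the whole of each bar, whereas the Rpl7a gene contributes between 5876 and 27141 counts above its 12 copies.

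The highest level per kb of all intergenic loci belonged to a nuclear copy of mitochondrial DNA, MSTRG.87 on chromosome 1 (chr1:24611534-24616190, − strand, 698 CPM per kb), where GENCODE places unprocessed pseudogenes such as Gm29216. It matched 7 mitochondrial genes with at least 99.7% identity, some of them only in part, with 485 bases at mt-Co1 and 502 bases at mt-Nd4. Its 4609 exon bases were assembled as 2 exons with a gap of 48 bases. It had 514843, 319771 and 295715 counts in control and 68541, 495256 and 399222 in PB, so that PB pool 1 lay far below the other pools and the other PB pools lay within the range of the controls. The log2 fold change was −0.31 ± 0.63 (SE, edgeR FDR = 0.942), and without PB pool 1 it was 0.15 and without control pool 1 it was 0.02. The 7 mitochondrial genes that it copies in whole or in part were far more even. Their counts differed between the highest and the lowest pool by 1.32-fold for mt-Nd3 to 1.57-fold for mt-Co1, whereas those of the copy differed by 7.51-fold. The counts of these genes are those of the whole genes, also where the copy holds only a part, and mt-Co1 had the most of them. The copy amounted to 65.2%, 36.2% and 37.5% of their sum in control and to 7.74%, 51.7% and 34.3% in PB. The copy and the genes together held 1.26%, 0.954% and 1.12% of all counts in control and 0.948%, 1.39% and 1.3% in PB.

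**Figure D4:**
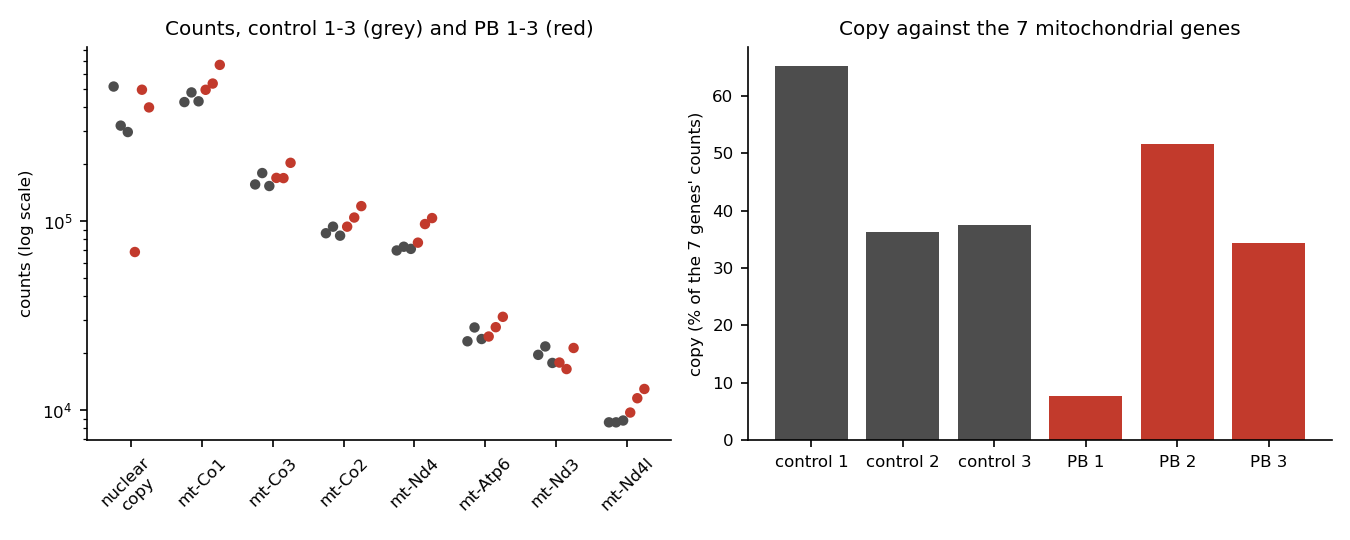
Left, counts on a log scale of the nuclear copy and of the 7 mitochondrial genes in each pool, from control 1 to 3 (grey) and PB 1 to 3 (red). Right, the copy as a percentage of the summed counts of these genes over their whole length. The copy spans a 7.51-fold range with its lowest value in PB 1, while each mitochondrial gene stays within a 1.57-fold range.

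Of the other loci of high level, the second, Gm10123 (MSTRG.19058, chr9:96895615-96896374, 540.6 CPM per kb), the copy of Ppia, had 46197, 58019 and 44112 counts in control and 39227, 46094 and 32649 in PB. Its level averaged 461 ± 16.5 CPM in control pools against 361 ± 81.3 CPM in PB pools (SD, n = 3) with no overlap in CPM. The log2 fold change was −0.35 ± 0.16 (SE, edgeR FDR = 0.895). That of the Ppia gene was 0.27 ± 0.17, in the other direction. In the part of the copy inside Gm10123, 100% of the stretches of 100 bases occurred in another GENCODE transcript. Then came Tpt1-ps3 (384 CPM per kb), a copy of the gene of the translationally controlled tumour protein, with a log2 fold change of 0.08 ± 0.06, and Rpl23a-ps3 (347 CPM per kb) with −0.04 ± 0.06. The copies Gm15500 of Rpl5 and Rps10-ps2 of Rps10, with 264 and 261 CPM per kb, had 0.02 ± 0.06 and −0.01 ± 0.05.

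MSTRG.19410, the fifth in level (321 CPM per kb), had no RefSeq gene, and no GENCODE gene was found at its place. Scaffold names were not matched between the annotations, so this search cannot decide whether GENCODE holds a gene there. It lay on the unplaced scaffold GL456382 at bases 14309 to 14754 as 1 exon and had 14263, 18066 and 13428 counts in control and 14701, 15396 and 17484 in PB. Its log2 fold change was 0.02 ± 0.05. The next loci for which no GENCODE gene was found were much lower, with 27.6 CPM per kb for MSTRG.9242 (chr19:24289111-24289372, 5422 bases downstream of Pip5k1b) and 16.1 CPM per kb for MSTRG.553 (chr1:99189601-99190093, 424521 bases from the nearest annotated transcript). The spliced locus MSTRG.19917 (chrX:101695771-101706199) lay 11420 bases downstream of Ogt, the gene of the transferase that attaches O-linked N-acetylglucosamine, on the same strand. It had 3954, 3207 and 3531 counts in control and 3990, 2530 and 4906 in PB, with the highest and the lowest pool both in PB (log2 fold change 0.03 ± 0.23).

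Splicing of these transcripts rarely followed a known gene structure. The 288 transcripts with more than 1 exon held 360 different introns, of a median length of 191 bases, and 129 of them (35.8%) were shorter than 100 bases. At processed pseudogenes the median of 212 introns was 100 bases, whereas at unprocessed pseudogenes the median of 76 introns was 848.5 bases. Of the 360 introns 53 occurred in GENCODE, 35 of them in unprocessed pseudogenes. MSTRG.91.1, with 6 exons at Gm6473, a diverged duplicate of the kinase gene Cdk10 (94.65% identity), had 147, 231 and 161 counts in control and 158, 176 and 256 in PB, and the groups overlapped.

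A known spliced non-coding gene was among the members. C030014I23Rik (MSTRG.18602, chr9:44478782-44482202, + strand) lay 164 bases upstream of Bcl9l, a coactivator of β-catenin, and its assembled exon boundaries (44479411 and 44481545) were those of GENCODE. The last 30 bases of its first exon, in lower case, and the first 30 bases of its second exon, in capitals, are given because they show the junction.
C030014I23Rik: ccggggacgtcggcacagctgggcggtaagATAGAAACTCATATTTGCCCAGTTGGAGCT
It had 175, 189 and 164 counts in control and 181, 168 and 201 in PB (log2 fold change 0.02 ± 0.13), with overlapping groups.

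Intergenic loci were found both near and far from annotated transcripts. The median distance from the nearest annotated transcript on either strand was 16576 bases (interquartile range 5627 to 51806) over the 1033 loci with a neighbour on their chromosome, 22.65% lay within 5000 bases and 25.94% beyond 50000 bases. Processed pseudogenes lay at a median of 18385 bases, loci with no GENCODE gene at 14719 and the 15 long non-coding loci at 2137 bases. Of the 58 loci within 1000 bases, 31 lay upstream of the neighbour on the opposite strand, the arrangement of a divergent promoter, 13 upstream on the same strand, 11 downstream on the opposite strand and 3 downstream on the same strand. Among the 31 divergent loci, 10 were pseudogenes of other genes, 8 were long non-coding or unchecked genes of GENCODE and 9 had no GENCODE gene.

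Neighbours of the divergent loci included several chromatin regulators. 5730414N17Rik lay 502 bases upstream of Kmt2d, a methyltransferase of histone H3 lysine 4, and had 303, 427 and 347 counts in control and 306, 375 and 334 in PB (log2 fold change −0.12 ± 0.14). 1110025M09Rik lay 979 bases upstream of Ep300, a histone acetyltransferase, and had 70, 163 and 108 counts in control and 103, 126 and 122 in PB (0.03 ± 0.27). Gm43672 lay 355 bases upstream of Tbl1xr1, a subunit of the NCoR and SMRT complexes that hold HDAC3, and had 425, 490 and 405 counts in control and 446, 547 and 414 in PB (0.06 ± 0.15). In each of the 3 the groups overlapped. Gm2415, upstream of the phosphatase gene Ctdspl by 184 bases, was the most abundant long non-coding locus of this arrangement, with 6.53 CPM per kb and a log2 fold change of 0.01 ± 0.08. None of the 31 divergent loci had an unadjusted p-value under 0.05 in edgeR, which 4.44% of all loci had, and their log2 fold changes ranged from −0.42 to 0.67 around a median of 0.01.

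The comparison of PB-exposed with control ovaries asked whether the counts placed at intergenic transcripts changed after exposure to an HDAC inhibitor. Most of these transcripts are close copies of genes, so their counts may include reads from the genes. The counts are therefore not a measure of RNA from outside genes alone. The intergenic transcripts held 1.77%, 1.55% and 1.63% of all counts in control and 1.38%, 1.80% and 1.61% in PB. The mean was 1.65% ± 0.113 in control and 1.60% ± 0.209 in PB (SD, n = 3), a difference of −0.0504 percentage points (exact permutation test, two-sided, p = 0.9, where 0.1 is the smallest p this design allows). The copy of the mitochondrial genes alone made up 0.0681% to 0.497% of all counts. Without it the shares were 1.27%, 1.29% and 1.32% in control and 1.31%, 1.33% and 1.28% in PB, with a difference of 0.0102 percentage points (exact permutation test, two-sided, p = 0.7). The transcripts of 1 exon held between 1.06% and 1.09% of the counts in every pool. Counts were found in all 3 control pools for 1056 of the transcripts and in all 3 PB pools for 1059, with 10 of them in all control pools but not all PB pools and 13 the other way round.

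A transcript or locus was called where it differed 2-fold or more with an FDR no higher than 0.05. In edgeR, 0 of 1083 intergenic transcripts tested were called, where 0.0332% of all 51227 transcripts tested were, and 6 (0.554%) had an unadjusted p-value under 0.05, where 3.56% of all transcripts did. Of the 6, 4 were higher in PB, where 1.85% of all transcripts were, and 2 lower, where 1.71% were. DESeq2's Wald test called 5, of which 3 were higher and 2 lower in PB, where it called 1.46% of all transcripts. An unadjusted p-value under 0.05 in DESeq2 was found for 39, where 6.52% of all transcripts had one. On counts summed per locus, edgeR called 0 of 1033, where 0.0141% of all loci were called, with a smallest FDR of 0.895. An unadjusted p-value under 0.05 was reached by 30 loci (2.90%), where 4.44% of all loci reached it. Of the 30, 11 were higher in PB, where 2.03% of all loci were, and 19 lower, where 2.41% were. DESeq2 called 0 loci, where it called 0.0212% of all loci, and 31 had an unadjusted p-value under 0.05, where 3.78% of all loci did.

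The CPM of the PB pools and of the control pools did not overlap in 107 of the 1083 transcripts (9.88%, with 9.91% over all transcripts tested) and in 101 of the 1033 loci (9.78%, with 10.6% over all loci tested), of which 38 had all PB pools above (4.68% over all loci) and 63 all PB pools below the controls (5.94% over all loci). The middle of the log2 fold changes lay between −0.10 and 0.10 (interquartile range), as it did over all loci. A change of at least 2-fold was estimated for 12 loci, from −1.64 for Gm11539, a copy of Rpl18, to 4.74 for MSTRG.7733, and 5 of the 12 had a count of 0 in at least 1 pool.

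**Figure D5:**
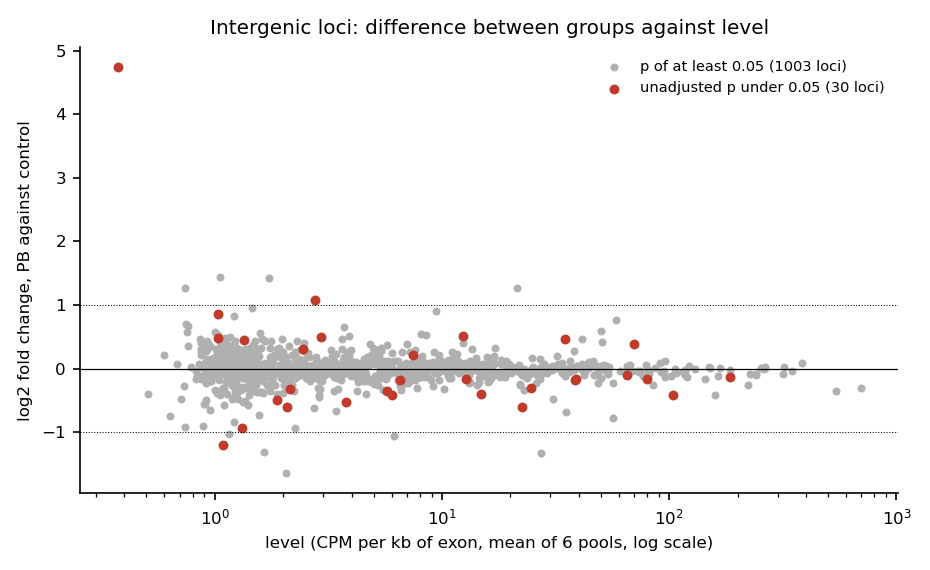
Log2 fold change of PB against control ovaries (vertical axis) against the level in CPM per kb averaged over the 6 pools (horizontal axis, log scale) for the 1033 intergenic loci tested. The 30 loci with an unadjusted p-value under 0.05 are in red and the dotted lines mark a 2-fold change; the point near 4.74 is MSTRG.7733, whose counts come from PB pool 3.

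The loci with the smallest p-values among those higher in PB were headed by 3 copies of Rpl7a. Gm5619 (MSTRG.19003, chr9:85781947-85782677) had 4816, 5766 and 3730 counts in control and 5882, 6579 and 6573 in PB. Its level averaged 44.3 ± 5.51 CPM in control pools against 57.7 ± 3.35 CPM in PB pools (SD, n = 3), with no overlap and a log2 fold change of 0.39 ± 0.10 (SE, edgeR FDR = 0.895). Rpl7a-ps3 (MSTRG.6127, chr15:36308470-36308950) had 1590, 1889 and 1049 counts in control and 1903, 2015 and 2484 in PB, with a log2 fold change of 0.47 ± 0.15, and Gm6129 (MSTRG.4674, chr13:34394305-34394538) had 266, 337 and 177 in control and 341, 392 and 390 in PB, with 0.51 ± 0.18. In all 3 the lowest pool was control 3, the pool in which the Rpl7a gene had its highest count. The other 9 copies of Rpl7a had log2 fold changes from −0.14 to 0.12, and these 3 share the changed base at position 46 with Gm8226, whose log2 fold change was 0.01.

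The fourth, Gm6475 (MSTRG.7395, chr17:3312161-3314039), the diverged copy of Cd2ap, had 140, 186 and 194 counts in control and 253, 232 and 263 in PB, so that all PB pools were above all controls. Its level averaged 1.63 ± 0.310 CPM in control pools against 2.27 ± 0.174 CPM in PB pools. The log2 fold change was 0.48 ± 0.17 (edgeR FDR = 0.895). The nearest annotated gene, Tiam2, 12257 bases away, had 0.06 ± 0.07. The fifth, Gm44126 (MSTRG.15186), a copy of Uxs1, which makes UDP-xylose, had 92, 160 and 127 counts in control and 170, 184 and 484 in PB, with a log2 fold change of 1.07 ± 0.39 that includes a value in PB pool 3 far above the other pools. In its part inside Gm44126, 100% of the 100-base stretches occurred in another GENCODE transcript. Uxs1 itself had a log2 fold change of −0.14 ± 0.09.

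Among loci lower in PB, Atp5l2-ps (MSTRG.3186, chr11:97767723-97768476), a copy of the ATP synthase subunit gene Atp5l, had 190, 269 and 154 counts in control and 131, 126 and 153 in PB. Its level averaged 1.89 ± 0.329 CPM in control pools against 1.24 ± 0.0592 CPM in PB pools. The log2 fold change was −0.60 ± 0.17 (edgeR FDR = 0.895). Gm11361 (MSTRG.4630), a copy of Rps18 that GENCODE calls protein-coding, had 1568, 1869 and 1291 counts in control and 1147, 1309 and 1447 in PB (−0.31 ± 0.09). Gm9049 (MSTRG.1957), where 100% of the stretches searched occurred in another GENCODE transcript, had 301, 340 and 250 in control and 191, 176 and 269 in PB (−0.53 ± 0.15). Rps12-ps10 (MSTRG.10521) had 144, 176 and 124 in control and 100, 106 and 116 in PB (−0.49 ± 0.15). Gm4735 (MSTRG.10192), whose closest coding match was the enolase gene Eno1b, had 4327, 5879 and 4482 in control and 3419, 2282 and 4275 in PB (−0.60 ± 0.18). In CPM every PB pool lay under every control pool in each of the 5, as it did in 5.94% of all loci tested. The 5 were picked by their p-values in these same pools, so this separation is no separate support. None of them passed the FDR threshold in edgeR.

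Several other loci with an unadjusted p-value under 0.05 were chosen after their values were seen. Dppa5c (MSTRG.18967, chr9:78272009-78273087), a spliced unprocessed pseudogene of Dppa5a, a gene of pluripotent and germ cells, had 92, 71 and 146 counts in control and 68, 45 and 57 in PB, with a log2 fold change of −0.93 ± 0.38 (edgeR FDR = 0.895). The pseudogene covered 49.2% of its exon bases, and 100% of the 100-base stretches there occurred in another GENCODE transcript. Its level per kb was 0.0511 of that of Dppa5a. Whether its counts came from the pseudogene or from Dppa5a was not tested. The summed germ cell markers overlapped between the groups, with 449 to 622 CPM in control and 378 to 667 CPM in PB. Single markers did not all go the same way. Pou5f1 had 29.57, 17.67 and 29.3 CPM in control and 16.44, 16.78 and 18.02 in PB. Dppa3 had 19.39, 11.53 and 20.58 in control and 11.78, 11.86 and 12.33 in PB. Sycp3 had 91.22, 85.06 and 93.86 in control and 134.9, 59.35 and 139.7 in PB. Each of these overlapped between the groups. Dppa5a had a log2 fold change of −0.297 ± 0.203. The paper counted fewer oocytes per section in PB ovaries at E15.5. The part of germ cells in the Dppa5c value was not tested. Gm10282 (MSTRG.17705), a copy of the nucleosome-binding protein gene Hmgn2, had 11271, 12760 and 9374 counts in control and 6105, 8531 and 11178 in PB (−0.42 ± 0.16). Hmgn2 itself had a log2 fold change of 0.26 ± 0.12, in the other direction. The transcript on the strand opposite Gm10282 (MSTRG.17706) had 66, 88 and 86 in control and 30, 17 and 63 in PB (−1.20 ± 0.43). MSTRG.7733, on the strand opposite Fkbp5, had 19, 6 and 3 counts in control and 19, 11 and 821 in PB, so that its log2 fold change of 4.74 ± 1.77 comes from PB pool 3. MSTRG.20212 (chrY:90736707-90741218), with no GENCODE gene, had 670, 850 and 1037 counts in control and 1019, 1365 and 1387 in PB (0.50 ± 0.20), while the 4 Y-linked marker genes summed to at most 0.424 CPM in any pool.

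In 84 loci fewer than 10% of the stretches occurred in another GENCODE transcript while the identity to the parent was at least 90%. Only the part of a locus inside its GENCODE gene was searched, for unchanged matches and among GENCODE transcripts alone. Matches elsewhere in the genome are therefore not excluded. The median log2 fold change of the 84 loci was −0.03 (interquartile range −0.22 to 0.09). Of them, 5 had an unadjusted p-value under 0.05, where 4.44% of all loci did, and none an FDR of at most 0.05 in edgeR. These were Atp5l2-ps, Rps12-ps10 and Gm6475, given above, Gm10086, a copy of Rpl34 with 19, 20 and 19 counts in control and 45, 32 and 31 in PB (0.86 ± 0.33), and Gm26384 at a copy of Eef1a1, with 412, 518 and 293 in control and 303, 321 and 318 in PB (−0.40 ± 0.16).

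Single transcripts of loci with several members varied more between pools than the loci did. The spread between pools of a group, as the median SD of log2 CPM, was 0.156 for the 923 tested transcripts that were the only member of their locus and 0.660 for the 160 in loci with several, but 0.222 when the transcripts of those 110 loci were summed. It was 0.161 over all member loci and 0.151 over all other loci. Of the 101 transcripts at or under the floor of 3 counts in every pool of a group, 98 lay in a locus with several members, and 3 of the 1037 loci had a group at the floor. MSTRG.10020 at Gm13456, a copy of Eef1a1, was assembled as 9 transcripts. Its transcript MSTRG.10020.6 had 0, 14 and 0 counts in control and 2728, 6398 and 19 in PB and a log2 fold change of 9.47 ± 3.02 (edgeR FDR = 1, DESeq2 adjusted p = 0.0127), and the locus had 2481, 5067 and 14069 in control and 14779, 8804 and 15429 in PB with a log2 fold change of 0.76 ± 0.63.

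MSTRG.7422 at Gm2792, a duplicate of Tulp4 on chromosome 17, had even pools within each group, and its 2 transcripts differed between the groups in opposite directions. Its transcript of 6 exons (MSTRG.7422.2) had 1690, 1722 and 1722 counts in control and 1240, 1187 and 1232 in PB, with no overlap and a log2 fold change of −0.53 ± 0.14 (edgeR FDR = 1, DESeq2 adjusted p = 0.0349). Its transcript of 2 exons (MSTRG.7422.1) had 62, 0 and 0 counts in control and 714, 646 and 758 in PB. Together they had 1752, 1722 and 1722 in control and 1954, 1833 and 1990 in PB, a log2 fold change of 0.11 ± 0.10 (edgeR FDR = 0.895). On the Y chromosome, the transcript MSTRG.20212.2 had 48, 53 and 63 counts in control and 920, 1165 and 83 in PB (log2 fold change 3.73 ± 1.06, DESeq2 adjusted p = 0.0188), and the other transcript of the locus 622, 797 and 974 in control and 99, 200 and 1304 in PB.

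The other 3 transcripts called by DESeq2 were of the same kind. MSTRG.5056.4, with no GENCODE gene, had 0, 1 and 0 counts in control and 8, 126 and 91 in PB (DESeq2 adjusted p = 0.00200), and its locus had 23, 75 and 0 in control and 12, 126 and 122 in PB. MSTRG.840.4, at a copy of the γ-secretase subunit gene Aph1a, had 263, 1398 and 1 in control and 4, 1 and 0 in PB (DESeq2 adjusted p = 0.0128), with a locus log2 fold change of −0.22 ± 0.20. MSTRG.5302.4, at Gm9800, a copy of the prothymosin gene Ptma, had 0, 1225 and 3457 in control and 0 in all PB pools (DESeq2 adjusted p = 0.0411), with a locus log2 fold change of −0.25 ± 0.29. All 5 transcripts called by DESeq2 lay in loci with several transcripts, and the groups of each of these loci overlapped in CPM.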

How the data were processed

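Members and lists were chosen with earlier results of these data known. According to the submitters' notes, the authors aligned reads to mm10 with HISAT2 2.1.0, assembled transcripts with StringTie 1.3.5 and deposited a matrix of raw counts per transcript, which StringTie estimates from coverage and divides among the transcripts of a locus. How reads that map to several places were counted is not given in the sources used here. The deposited table of the authors' DESeq2 1.30.0 comparison holds log2 fold changes with standard errors, p-values and 6 columns of normalized values per pool, none of which was used. Class codes were read from it, and positions and exons from the deposited transcript annotation, mm10.

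Samples were grouped by their treatment label. Nothing in the labels ties a pool to separate litters, so p-values measure the spread between these pools. Counts were tested with edgeR 4.0.16 and limma 3.58.1 in R 4.3.3 over the whole table (TMM scaling, filterByExpr at a count of 10 and a total of 15, quasi-likelihood F-test, Benjamini-Hochberg FDR, SE as the size of the log2 fold change divided by the square root of F). Counts of intergenic transcripts were also summed per StringTie locus, apart from other transcripts of the locus. DESeq2 1.42.0 was an alternative. Shares were compared with an exact permutation test. The scripts were tested on simulated data.

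Exons were compared with GENCODE M21. Parents are the best blastn 2.17.0 match (e-value of at most 1e-10) among coding transcripts, and a parent's counts are those of deposited transcripts with an exon on its exons. Families of parents were defined after the parents were seen. The spread between pools used log2(CPM + 0.1). Floors cover counting error only. Named loci and transcripts are the 10 highest levels per kb, the 5 smallest p-values in each direction, the 5 transcripts with most exons and those called by DESeq2. Some items that this rule names are not reported here. Copies of Gapdh and Rpl7a, the divergent loci, C030014I23Rik, loci with no GENCODE gene and the 84 loci of low sharing were chosen after their values were seen.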

Additional observations from a re-analysis of the deposited data

How the results depend on the processing

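The number of intergenic transcripts called stayed at 0 in edgeR with DESeq2 size factors, without the filter, with the stricter filter, at an FDR of 0.1 and without any 1 pool, and was 5 with the DESeq2 Wald test. The number of loci called was 0 in these settings and between 0 and 1 when a pool was left out, the 1 being MSTRG.743, a copy of Rpl4, without PB pool 2 (216, 384 and 194 counts in control, 17 and 32 in the other PB pools). Pool numbers are shared between the groups, but the deviations of equally numbered pools did not go together (correlations of −0.00229, 0.0117 and 0.00335), so the numbers do not pair the pools, and a replicate block gave 0 transcripts and 0 loci called.

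The difference in the share of all counts reversed to 0.0186 percentage points without the 10 most abundant transcripts, to 0.0102 without the copy of the mitochondrial genes (chosen after seeing the data), and ranged from −0.151 to 0.0576 when a pool was left out, with positive values without control pool 1 (0.0104) or PB pool 1. The share of loci within 5000 bases of an annotated transcript was 10.84% on the same strand and 16.36% for coding transcripts. Detection at 4 or 10 counts and an overlap of 50% with GENCODE changed the counts by less than 1.5 times.

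Of 341 alternatives of 31 named log2 fold changes, 329 kept direction and side of the FDR threshold, 3 passed it only in DESeq2 (MSTRG.20212.2, MSTRG.10020.6 and MSTRG.7422.2, of which the last stayed under 2-fold) and 9 changed sign. Leaving out a pool changed the sign of 7 of the 31, which then ranged from −0.84 to 0.15 for MSTRG.87, −0.0692 to 0.0174 for MSTRG.5476, −0.0216 to 0.0396 for MSTRG.20179, −0.0201 to 0.0559 for MSTRG.16875, −0.0501 to 0.0272 for MSTRG.7001, −0.0152 to 0.0412 for MSTRG.18997 and −0.0623 to 0.208 for MSTRG.91.1. The cause was not tested.

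How reads shared by a copy and its gene were placed was not tested, as the deposited counts do not hold it. With 3 pools per group, exact tests of a single value cannot go below p = 0.1.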
